A study of Homo sapiens with 6 samples.

Results

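The S100 proteins and annexins are calcium-binding protein families, and their genes were taken here as every symbol of the array annotation that begins with S100 and a further letter, or that is ANXA followed by a number. Of 18404 genes measured by a row with exactly 1 symbol, 33 met this rule: 22 S100 symbols and 11 annexins, each measured by 1 row. One of the S100 symbols, S100PBP, encodes a nuclear protein that binds S100P and is not itself an S100 protein, so the S100 family proper had 21 members. The study compared total RNA of BE(2)-C, a human neuroblastoma cell line that is a clonal subline of SK-N-BE(2) with amplified MYCN, between 3 samples exposed to 5 µM BIX01294 for 24 h and 3 samples given the solvent, 0.05% DMSO, for 24 h. BIX01294 inhibits the enzymes encoded by EHMT2 and EHMT1, which place methyl groups on lysine 9 of histone H3. All samples grew in DMEM with dialyzed serum, the labels give no solvent content for the BIX01294 samples, and each sample was hybridised to 1 Affymetrix array. The samples are described as independent, but nothing says that they came from separate cultures, so p-values measure the spread between these arrays, which may be technical.

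S100 proteins are small proteins with a pair of EF-hands, helix-loop-helix folds that hold calcium. They mostly work as dimers that open a binding surface for target proteins when calcium rises, and some are also secreted and act on receptors such as RAGE. Annexins bind acidic membrane phospholipids in a calcium-dependent way and organise membrane domains, exocytosis and membrane repair. The families meet in complexes: a dimer of S100A10 joins a pair of annexin A2 molecules into a heterotetramer, S100A11 binds annexin A1, and S100A6 binds annexin A11. S100A10 is the exception of its family in that its EF-hands no longer bind calcium and it is held in the open form. Most S100 genes lie in a cluster on the long arm of chromosome 1, where they flank the genes of the epidermal differentiation complex, whereas the annexin genes are scattered over the genome.

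The promoter sequences of the genes on which the results turn are shown as the 250 bases before each transcription start, from RefSeq on GRCh38.p14, 5′ to 3′ on the gene's strand. The set holds the 4 S100 genes of the chromosome 1 cluster that rose, with both starts of S100A16, their cluster neighbour S100A6, which did not pass the test, and the annexin genes ANXA2 and ANXA7. Capitals mark matches, on either strand, to 5 short motifs, none of which contains another: the GC box GGGCGG, the CCAAT box CCAAT, the TATA box TATAAA, the E box CACGTG and the AP-1 site TGANTCA.
S100A10 (chr1:151993860-151994109, minus strand): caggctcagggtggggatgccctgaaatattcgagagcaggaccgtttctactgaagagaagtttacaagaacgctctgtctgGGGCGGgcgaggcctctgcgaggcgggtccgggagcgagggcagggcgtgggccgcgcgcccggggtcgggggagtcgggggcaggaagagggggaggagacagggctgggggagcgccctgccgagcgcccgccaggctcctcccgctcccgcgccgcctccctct
S100A11 (chr1:152037005-152037254, minus strand): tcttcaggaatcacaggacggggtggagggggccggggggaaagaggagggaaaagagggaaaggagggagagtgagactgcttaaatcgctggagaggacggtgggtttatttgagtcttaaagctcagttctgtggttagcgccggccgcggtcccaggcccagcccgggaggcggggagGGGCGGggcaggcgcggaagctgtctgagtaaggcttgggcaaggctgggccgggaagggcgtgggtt
S100A3 (chr1:153549259-153549508, minus strand): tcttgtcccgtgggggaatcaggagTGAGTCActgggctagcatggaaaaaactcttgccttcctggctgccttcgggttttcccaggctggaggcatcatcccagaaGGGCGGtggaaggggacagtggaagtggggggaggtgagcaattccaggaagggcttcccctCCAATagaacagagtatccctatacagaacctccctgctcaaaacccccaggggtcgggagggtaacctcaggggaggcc
S100A16 first start (chr1:153613138-153613387, minus strand): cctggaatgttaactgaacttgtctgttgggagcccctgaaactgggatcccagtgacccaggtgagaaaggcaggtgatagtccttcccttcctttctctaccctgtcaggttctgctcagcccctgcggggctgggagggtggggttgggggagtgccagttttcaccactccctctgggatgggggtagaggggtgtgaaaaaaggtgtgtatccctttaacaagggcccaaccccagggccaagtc
S100A16 second start (chr1:153609356-153609605, minus strand): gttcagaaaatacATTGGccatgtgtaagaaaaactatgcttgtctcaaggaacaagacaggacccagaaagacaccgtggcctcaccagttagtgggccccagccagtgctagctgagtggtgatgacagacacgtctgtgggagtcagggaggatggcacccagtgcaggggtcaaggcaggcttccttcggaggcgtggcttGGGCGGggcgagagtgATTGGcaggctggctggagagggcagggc
S100A6 (chr1:153535992-153536241, minus strand): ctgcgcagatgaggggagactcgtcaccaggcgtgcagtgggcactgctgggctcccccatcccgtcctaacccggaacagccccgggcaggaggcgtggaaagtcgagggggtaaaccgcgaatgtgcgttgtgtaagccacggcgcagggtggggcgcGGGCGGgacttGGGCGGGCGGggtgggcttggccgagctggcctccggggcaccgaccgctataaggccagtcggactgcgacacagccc
ANXA2 (chr15:60397987-60398236, minus strand): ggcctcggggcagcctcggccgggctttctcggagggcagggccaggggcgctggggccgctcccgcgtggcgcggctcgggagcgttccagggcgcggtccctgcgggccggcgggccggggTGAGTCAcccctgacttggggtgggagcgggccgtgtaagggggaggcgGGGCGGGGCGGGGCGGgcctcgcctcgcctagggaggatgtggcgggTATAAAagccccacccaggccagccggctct
ANXA7 (chr10:73414059-73414308, minus strand): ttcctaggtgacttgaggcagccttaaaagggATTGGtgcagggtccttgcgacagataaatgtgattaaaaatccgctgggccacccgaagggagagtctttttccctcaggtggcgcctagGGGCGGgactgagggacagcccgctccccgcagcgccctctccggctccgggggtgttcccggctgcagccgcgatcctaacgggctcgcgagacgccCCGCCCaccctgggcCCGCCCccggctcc

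Promoter windows were matched by symbol for 30 of the 33 members, 43 windows in all. The windows of the 4 rising cluster genes held a GC box in 4 of 5 cases, a CCAAT box in 2, an AP-1 site in 1 (S100A3), and neither a TATA box nor an E box in any. In the 12 other S100 genes of the cluster that had windows, 8 of 18 windows held a TATA box and 3 a GC box. Overlapping windows of S100A8 hold the same TATA box, which is counted once per window. These counts were not tested against those of the rising genes. Of 35116 promoter windows of the same length in the table, 42.6% held a GC box, 32.0% a CCAAT box, 10.7% a TATA box, 6.57% an AP-1 site and 6.34% an E box. CpG dinucleotides numbered 24 in the S100A10 window and 15 in that of S100A11, but 4 in that of S100A3 and 1 and 6 in those of S100A16. S100A6, which did not pass the test, had 24, so the 4 rising cluster genes did not share one CpG content. Over all members with windows, the median was 17 CpG (range 1 to 31) in the 10 windows of members that passed. It was 4 (range 0 to 36) in the 33 windows of members that did not pass, and 11 over all windows. This difference was not tested. The matches are descriptions of letters in these windows, and no binding was measured.

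Values are log2 expression values as deposited, and a difference of 1 is a 2-fold change. Over all genes 23.6% passed the test, limma's moderated test with Benjamini-Hochberg adjustment and a threshold of 0.05, with 12.9% higher in BIX01294 and 10.7% lower. At an unadjusted p under 0.05 in limma, 11 of the 33 members were higher and 1 lower, where 3437 and 2979 of the 18404 genes were. With the adjustment, 9 of the 33 members rose and 0 fell. These were 5 of the 22 S100 symbols (S100A10, S100A16, S100A11, S100A3 and S100B) and 4 of the 11 annexins (ANXA7, ANXA2, ANXA5 and ANXA6). The median log2 change was 0.07 over the S100 symbols and 0.10 over the annexins, against -0.01 over all genes tested. All 3 BIX01294 arrays lay above all 3 DMSO arrays for 12 members, where 21.4% of all genes did so, and below them for 1 member, where 18.7% of all genes did so. Of the 33 members, 14 had a mean over the 6 arrays below the lower quartile of gene means and 0 of these passed in limma, where 4.8% of all genes below that quartile passed. Of the 11 members at or above the median of gene means 7 rose, where 22.5% of all genes at or above that median rose. One of the 7, S100A16, had a DMSO mean of 7.52, just under that median of 7.53, and was counted there through its treated arrays. The arrays carry no detection call, so dim members were not told apart from background. These are bulk samples, in which more cells of a type and more RNA per cell cannot be told apart.

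**Figure D1:**
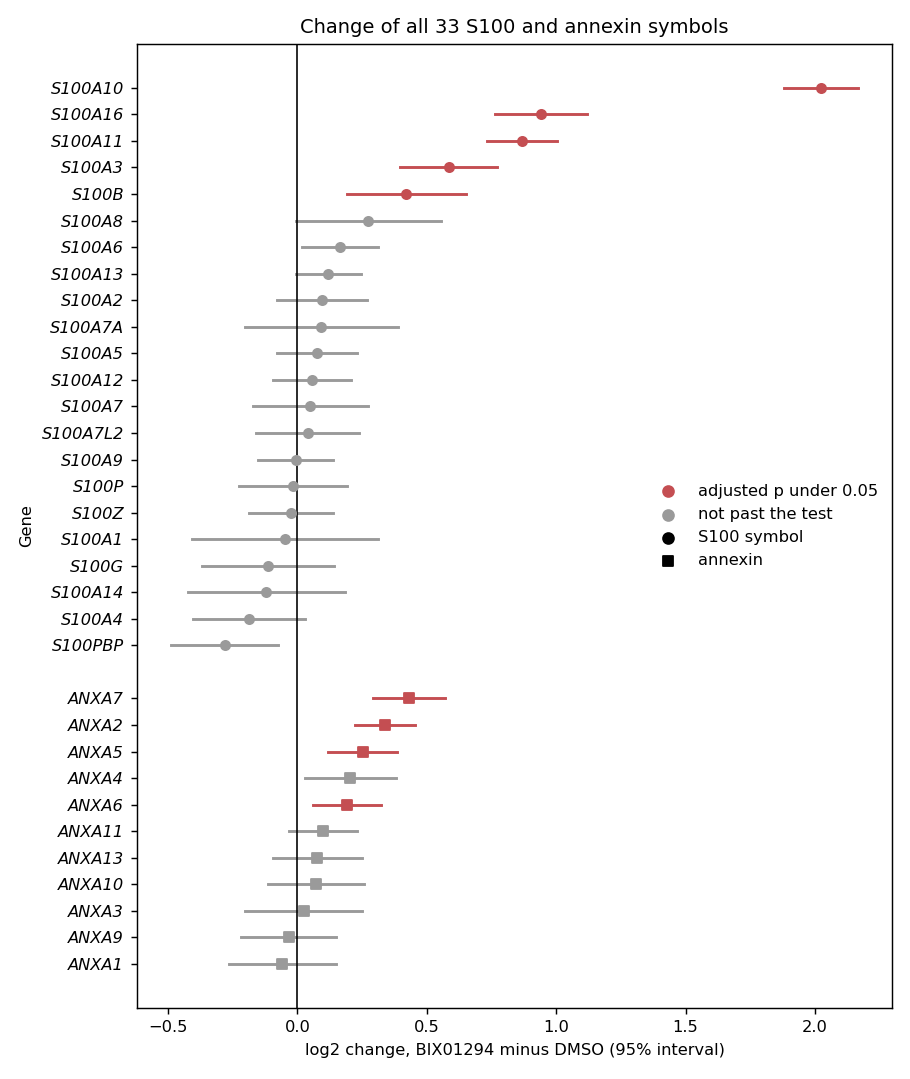
Log2 change (BIX01294 minus DMSO) of the 33 members, with 95% intervals from limma; circles are S100 symbols, squares annexins, and red marks an adjusted p under 0.05. S100A10 stands at 2.02, S100A16 and S100A11 near 0.9, and the 24 members that did not pass lie between -0.28 and 0.27.

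S100A10, the annexin A2 partner, rose most. It measured 10.32, 10.19 and 10.30 in the DMSO arrays and 12.37, 12.28 and 12.23 in the BIX01294 arrays. Every treated array was higher than every control array, and the gap was many times the spread within a group. The change of 2.02 ± 0.063 (SE) on the log2 scale, a 4.06-fold rise, had an adjusted p of 1.54e-06 in limma and was the 6th largest rise of the 18404 genes. S100A10 was the only member among the 43 genes that rose at least 2-fold, which were 0.234% of all genes.

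S100A16 and S100A11 rose by somewhat less than 2-fold. S100A16, a widely expressed member of the family, measured 7.57, 7.56 and 7.43 in DMSO and 8.61, 8.38 and 8.39 in BIX01294. The groups were well apart, with the first treated array the highest, and the rise was 1.92-fold (0.94 ± 0.077 SE, adjusted p 0.000181 in limma). S100A11, the annexin A1 partner, measured 11.50, 11.42 and 11.52 in DMSO and 12.41, 12.29 and 12.34 in BIX01294. Here too the groups did not overlap, and the rise was 1.82-fold (0.87 ± 0.059 SE, adjusted p 7.32e-05 in limma). S100A10, S100A16 and S100A11 kept their calls in all 16 alternatives, with changes of 1.98 to 2.06, 0.87 to 0.98 and 0.83 to 0.90.

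S100A3 and S100B rose from levels below the median of gene means. S100A3, a cysteine-rich protein best known from the hair cuticle, measured 6.13, 6.22 and 6.13 in DMSO and 6.77, 6.88 and 6.58 in BIX01294. The treated arrays were all higher but differed more among themselves than the controls, and the rise was 1.50-fold (0.58 ± 0.081 SE, adjusted p 0.00171 in limma). S100B, a glial protein that can be secreted and is used as a marker of Schwann cells and melanocytes, measured 7.32, 7.12 and 6.89 in DMSO and 7.55, 7.51 and 7.54 in BIX01294. The control arrays of S100B were spread widely and the highest of them lay just below the treated arrays. Its rise of 1.34-fold (0.42 ± 0.100 SE, adjusted p 0.0177 in limma) lost its call without BIX01294 replicate 1 or 3, with changes of 0.41 and 0.42, and in the fit over all rows, with a highest adjusted p of 0.0617 over its alternatives. The genes SOX10, ERBB3 and MITF, which mark the Schwann and melanocyte lineage, did not pass the test, and their part in the S100B result was not tested.

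**Figure D2:**
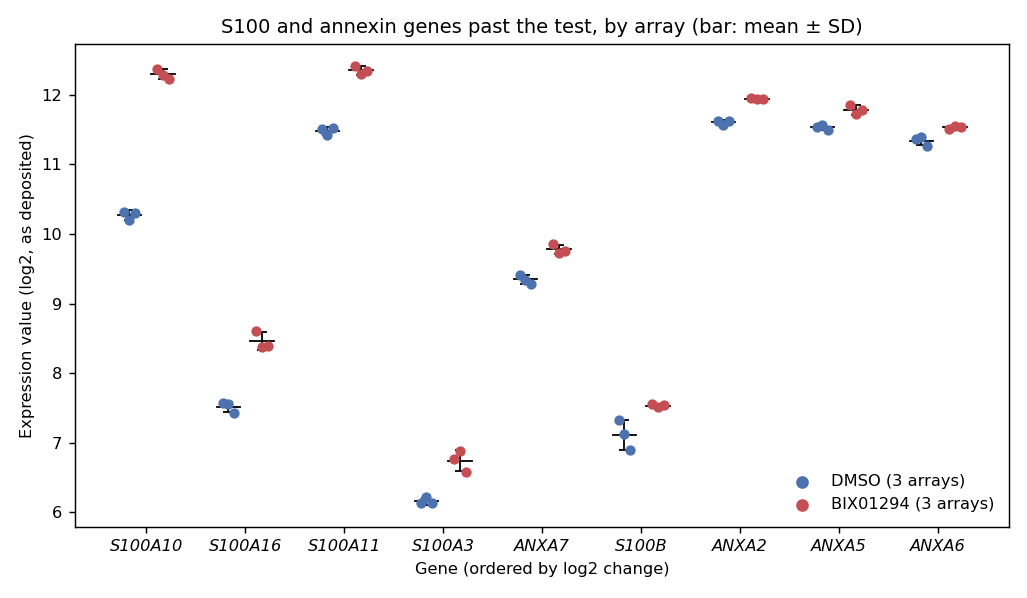
Deposited log2 expression value of each array for the 9 members past the test, with DMSO arrays in blue, BIX01294 arrays in red and black bars for the group mean ± SD (3 arrays each). No gene's groups overlap, S100A10 has the widest gap and S100B the widest spread among its controls.

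Of the 5 annexins at or above the median of gene means, 4 rose by small amounts and ANXA11 did not pass, where 22.5% of all genes at that level rose. ANXA7, an annexin linked to vesicle fusion that binds sorcin, measured 9.41, 9.34 and 9.29 in DMSO and 9.85, 9.73 and 9.75 in BIX01294, a 1.35-fold rise (0.43 ± 0.061 SE, adjusted p 0.00186 in limma). ANXA2, which links membranes to actin and carries S100A10, measured 11.63, 11.57 and 11.62 in DMSO and 11.96, 11.94 and 11.94 in BIX01294, a 1.26-fold rise (0.34 ± 0.051 SE, adjusted p 0.00239 in limma). The treated arrays of both genes lay above all controls, and both kept their calls in all 16 alternatives. ANXA5, the phosphatidylserine-binding annexin used to stain dying cells, measured 11.54, 11.56 and 11.49 in DMSO and 11.85, 11.72 and 11.78 in BIX01294, a 1.19-fold rise with an adjusted p of 0.0156 in limma. ANXA6, an annexin with a duplicated core, measured 11.36, 11.40 and 11.26 in DMSO and 11.50, 11.55 and 11.54 in BIX01294, a 1.14-fold rise with an adjusted p of 0.0432 in limma. The groups did not overlap for either gene, but these calls were less firm. ANXA5 lost its call without BIX01294 replicate 1 or 3, and ANXA6 lost its call in 9 of 16 alternatives, among them the removal of any single array, with a highest adjusted p of 0.117.

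The S100A10 and ANXA2 transcripts thus both rose, by 2.02 and 0.34 on the log2 scale. For the S100A11 and annexin A1 pair, S100A11 rose, while ANXA1, a glucocorticoid-induced annexin, measured 4.57, 4.76 and 4.76 in DMSO and 4.68, 4.76 and 4.47 in BIX01294. The ANXA1 groups overlapped fully at a level below the lower quartile of gene means, and the difference was -0.06 with a 95% interval of -0.27 to 0.15. For the S100A6 and annexin A11 pair, neither gene passed. S100A6 measured 8.17, 8.20 and 8.10 in DMSO and 8.42, 8.28 and 8.27 in BIX01294. The S100A6 groups did not overlap, and its difference of 0.16 (95% interval 0.02 to 0.31) had an adjusted p of 0.105 in limma, which became 0.0302 when the fit held only genes at or above the median level. ANXA11, which tethers RNA granules to lysosomes, differed by 0.10 (95% interval -0.03 to 0.23; adjusted p 0.270 in limma), with one treated array, at 9.12, below the highest control at 9.13.

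The ANXA2 transcript has close processed copies in the genome, and rows of these copies were on the array. ANXA2P2 measured 12.30, 12.36 and 12.27 in DMSO and 12.73, 12.60 and 12.70 in BIX01294, a change of 0.36 ± 0.059 (SE) with an adjusted p of 0.00338 in limma. ANXA2P1 changed by 0.43 ± 0.068 (SE; adjusted p 0.00311 in limma), and ANXA2P3 by 0.10, with an adjusted p of 0.565. The probes of these near-identical sequences can take up each other's transcripts, so the rises of ANXA2, ANXA2P1 and ANXA2P2 cannot be told apart as separate measurements. S100A7 and S100A7A are close copies as well, and neither passed.

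The remaining members gave small differences. S100A4, which binds non-muscle myosin and is linked to cell motility, measured 8.03, 7.92 and 7.97 in DMSO and 8.00, 7.63 and 7.73 in BIX01294. The first treated array of S100A4 lay among the controls and the other 2 below them, and the difference of -0.19 (95% interval -0.40 to 0.03) had an adjusted p of 0.203 in limma, and leaving out BIX01294 replicate 1 gave -0.29 (adjusted p 0.0272), leaving out BIX01294 replicate 2 gave -0.11 (adjusted p 0.460). S100A8, a subunit of the neutrophil protein calprotectin, measured 4.17, 4.47 and 4.52 in DMSO and 4.43, 4.81 and 4.73 in BIX01294. The groups of S100A8 overlapped at a level below the lower quartile, and the difference was 0.27 (95% interval -0.01 to 0.55; adjusted p 0.153 in limma). S100A8 passed with the replicate number as a block (adjusted p 0.0258 in limma) and without BIX01294 replicate 1 (difference 0.39, adjusted p 0.0499), while without DMSO replicate 1 the difference was 0.16 (adjusted p 0.383). Its partner in calprotectin, S100A9, differed by -0.01 (95% interval -0.15 to 0.14). S100A13, which takes part in the release of FGF1, differed by 0.12 (adjusted p 0.166 in limma), and its treated arrays, at 6.92, 6.86 and 6.97, lay above the controls at 6.77, 6.80 and 6.82.

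ANXA4, an annexin of epithelial membranes, measured 6.32, 6.24 and 6.16 in DMSO and 6.38, 6.58 and 6.37 in BIX01294. The ANXA4 groups did not overlap, and the difference of 0.20 had an adjusted p of 0.0916 in limma, or 0.0498 when arrays were centred on their medians. S100PBP, the S100P-binding protein, measured 8.80, 8.85 and 8.52 in DMSO and 8.51, 8.42 and 8.39 in BIX01294. All treated arrays of S100PBP lay below the controls, the lowest control only just so, and the difference of -0.28 (95% interval -0.49 to -0.08) had an adjusted p of 0.0559 in limma. S100PBP was lower and past the threshold in 6 of 16 alternatives, so it lay near the threshold rather than clearly on one side. Of the 24 members that did not pass, 14 differed upwards and 10 downwards. The 15 not yet described, among them S100G, a calcium buffer of the gut, the inflammatory S100A12 and S100A7, the heart-enriched S100A1, S100P, S100Z, ANXA3, ANXA9, ANXA10 and ANXA13, differed by between -0.12 (S100A14) and 0.10 (S100A2). Their 95% intervals reached down to -0.42 for S100A14 and up to 0.39 for S100A7A, so changes of that size could have been missed.

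In the chromosome 1 cluster, genes that rose lay at both ends. In RefSeq order, 60 measured genes ran from S100A10 to S100A1, of which 17 were S100 genes. Of the 60, 4 rose and 0 fell, where 12.9% and 10.7% of all genes did so. S100A10 and S100A11 are direct neighbours at one end, and both rose. They are followed by 43 genes of the epidermal differentiation complex and its surroundings, which encode proteins of the skin barrier such as filaggrin and involucrin, and then by the other 15 S100 genes. Of those 43 genes 0 passed in limma, where 23.6% of all genes and 4.8% of those below the lower quartile of gene means passed. Among the 43, 1 had an unadjusted p under 0.05 in limma, where 3437 of the 18404 genes were higher and 2979 lower at that threshold. Changes of the 43 ran from -0.22 to 0.21. Of them, 20 lay below the lower quartile of gene means, so that many could not be told apart from background. Of the other 15 S100 genes, 2 rose, S100A3 and S100A16, which is close to the 12.9% of all genes that rose. S100A3 lies between S100A4 (-0.19) and S100A2 (0.10), and S100A16 between S100A2 and S100A14 (-0.12), none of which passed.

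**Figure D3:**
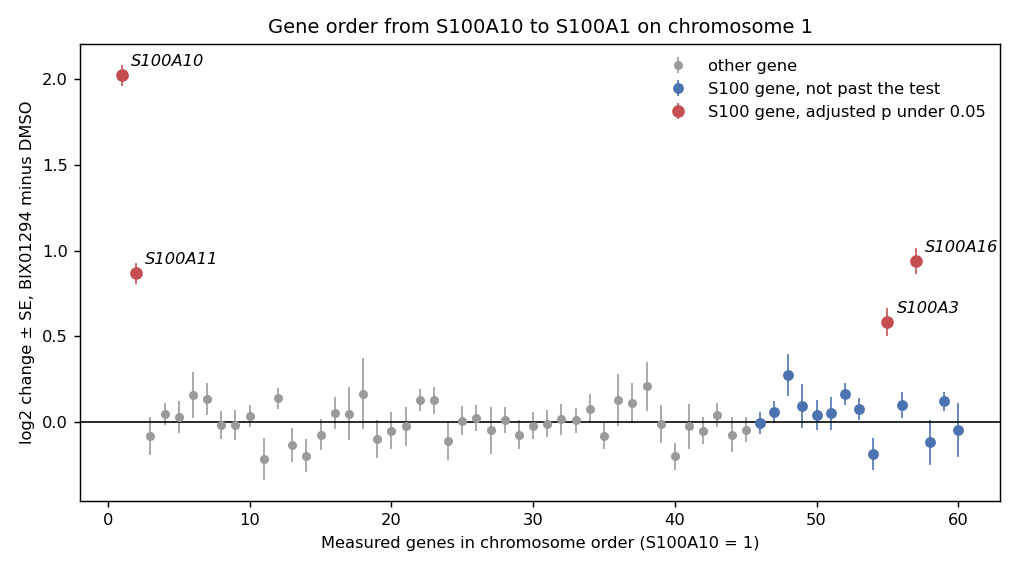
Log2 change ± SE (BIX01294 minus DMSO) of 60 measured genes on chromosome 1 in RefSeq order, from S100A10 (position 1) to S100A1 (position 60); red marks S100 genes past the test, blue other S100 genes, grey other genes. S100A10 and S100A11 rise at one end and S100A3 and S100A16 at the other. Of the 43 genes between the blocks 0 passed the test, where 23.6% of all genes did.

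Outside the cluster, the genes next to the rising members were given the same look. On the other side of S100A10, the acyl-CoA thioesterase gene THEM4 rose by 0.27 ± 0.067 (SE; adjusted p 0.0231 in limma). Of the 5 measured genes on that side 2 rose, where 12.9% of all genes did so. The other was LINGO4, named after its value was seen, by 0.42 ± 0.061 (SE, adjusted p 0.00212 in limma). Of the 5 measured genes beyond S100A1, at the other end of the cluster, 0 rose and 0 fell. At an unadjusted p under 0.05 in limma, 2 of these 5 passed, and 4 of them lay at or above the median of gene means. The neighbours of S100B moved apart from each other: PRMT2, an arginine methyltransferase, rose by 0.31 and DIP2A fell by 0.20 on the log2 scale (adjusted p 0.0235 and 0.0338 in limma). The measured neighbours of the annexins, CFAP70 and MSS51 for ANXA7, FOXB1 and ICE2 for ANXA2, QRFPR and SMIM43 for ANXA5, and TNIP1 and CCDC69 for ANXA6, did not pass, with changes between -0.15 and 0.08. CFAP70, QRFPR, SMIM43 and CCDC69 had means below the lower quartile of gene means (5.99) in both groups. Of all genes below that quartile 4.8% passed in limma.

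Genes whose proteins work with the members were read from 7 related lists, which together held 98 measured genes, 23 of them higher and 8 lower, where 12.9% and 10.7% of all genes were. Among 13 partners of the S100A10 and annexin A2 complex, 4 rose and 2 fell, with a median change of -0.01. The falls were those of ASIC1, an acid-sensing ion channel, by 0.61 ± 0.052 (SE) and of HLTF, a chromatin remodeller, by 0.35 ± 0.055 (SE) on the log2 scale. The serotonin receptor HTR4 rose by 0.32 and the potassium channel KCNK3 by 0.31. Partners of the complex therefore moved in both directions while S100A10 and ANXA2 rose.

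Of 9 receptors for S100 proteins and annexins, 2 rose and 1 fell, where 12.9% and 10.7% of all genes did so. TLR4, a receptor of the S100A8 and S100A9 complex, measured 5.91 ± 0.26 in DMSO and 6.44 ± 0.09 in BIX01294 (SD, n = 3 per group), and ALCAM rose by 0.26. ANXA2R, the annexin A2 receptor, fell by 0.21 but lost its call in 9 of 15 alternatives. Of 9 measured binding proteins, 7 rose and 1 fell, with a median of 0.25; none of the 9 lay below the lower quartile of gene means, and of all genes at or above the median level 22.5% rose. CACYBP, the S100A6-binding protein that takes part in protein degradation, rose by 0.57 ± 0.076 (SE), TPM1, a tropomyosin, by 0.39, and MYH9, the myosin bound by S100A4, by 0.38. Grancalcin (GCA), a relative of sorcin, fell by 0.59 ± 0.074 (SE).

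Other calcium-binding genes were read in the same way, beside the same shares of all genes, 12.9% higher and 10.7% lower. At an unadjusted p under 0.05 in limma, 3437 of the 18404 genes were higher and 2979 lower. Of 26 further EF-hand genes, 5 rose and 0 fell, with a median of 0.03. At an unadjusted p under 0.05 in limma, 6 of the 26 were higher and 2 lower. The neuronal calcium sensors HPCAL1 and NCS1 rose by 0.50 and 0.30, the centriole protein CETN2 by 0.39 and RCN2, a calcium-binding protein of the endoplasmic reticulum, by 0.25. Of 21 genes for proteins with C2 domains, many of which like annexins bind membranes when calcium rises, 3 rose and 4 fell. RPH3A rose by 0.40 and the extended synaptotagmin ESYT1 by 0.38, while the synaptotagmin SYT4 and DOC2B each fell by 0.44 on the log2 scale, DOC2B with no call without DMSO replicate 3 (adjusted p 0.0505 in limma). Of 14 calpain and membrane repair genes 2 rose and 0 fell, at an unadjusted p under 0.05 4 and 0: the protease CAPN2 by 0.29 and its inhibitor CAST by 0.24. CAST lost its call without DMSO replicate 1 or BIX01294 replicate 1. The 6 measured fused-type S100 genes, which join an S100 domain to long repeats in skin proteins, gave 0 calls in limma, also at an unadjusted p under 0.05, with FLG differing by 0.16 ± 0.134 (SE), or by 0.04 without DMSO replicate 1 and 0.30 without DMSO replicate 3.

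**Figure D4:**
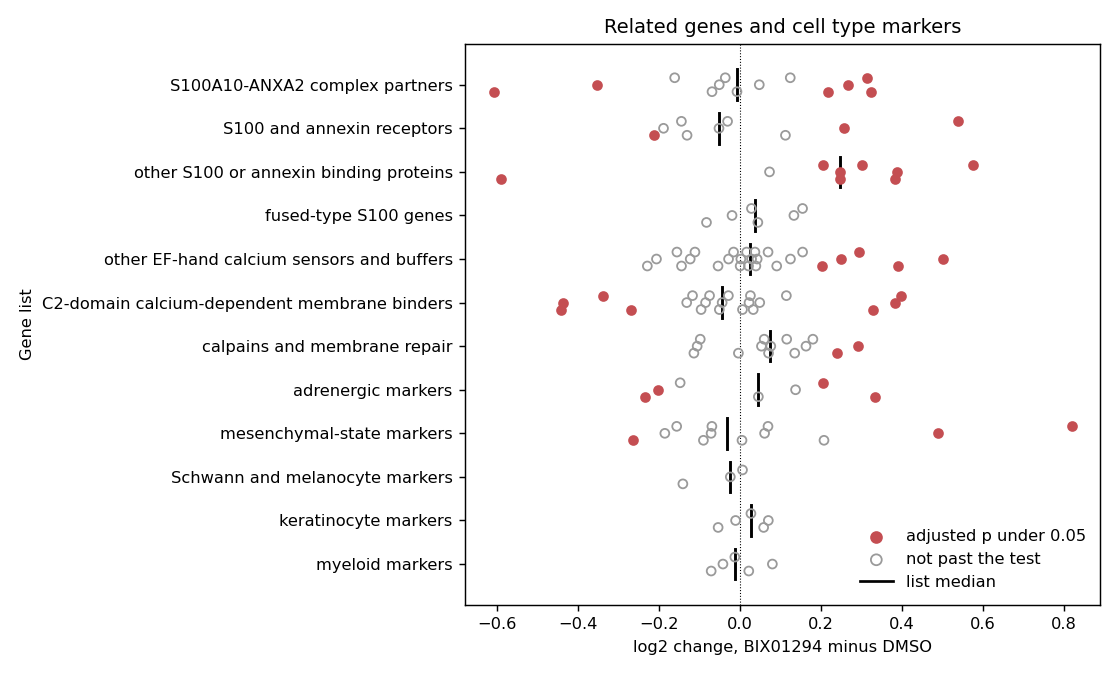
Log2 change (BIX01294 minus DMSO) of each measured gene in the 7 related lists and 5 marker lists; filled red points have an adjusted p under 0.05, open points do not, and black ticks are list medians. The binding proteins have a median of 0.25, and every other list has a median between -0.05 and 0.07.

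Markers of the adrenergic state of the labelled line and of other cell states and types were measured beside the S100 and annexin genes. The adrenergic markers of the labelled neuroblastoma line, PHOX2A, GATA3, GATA2, ISL1, HAND2, DBH and TH, were all above the median of gene means in both groups. Of these 7, 2 rose (ISL1 by 0.34, GATA2 by 0.21) and 2 fell (GATA3 by 0.23, PHOX2A by 0.20). Over all genes 12.9% rose and 10.7% fell, and 22.5% of those at or above the median level rose. The mean level of the adrenergic list per array was 10.76 to 10.77 in DMSO and 10.75 to 10.82 in BIX01294. GATA2 and PHOX2A lost their calls in 8 of 16 alternatives each, and GATA3 without DMSO replicate 1 or 2 or BIX01294 replicate 3. Of 12 mesenchymal-state markers, 2 rose, VIM by 0.82 and CD44 by 0.49, and 1 fell, TWIST1 by 0.26, counts near those shares of all genes. TWIST1 lost its call without BIX01294 replicate 3 (adjusted p 0.0548 in limma). The mean level of this list was 7.49 to 7.53 per array in DMSO and 7.53 to 7.62 in BIX01294, with FN1, PRRX1, NOTCH2, TAGLN and CAV1 below the lower quartile of gene means. The Schwann and melanocyte, keratinocyte and myeloid lists (3, 5 and 5 genes measured) gave 0 calls each in limma. At an unadjusted p under 0.05 in limma, where 3437 of the 18404 genes were higher and 2979 lower, these lists gave 1, 0 and 0 genes. Their mean levels overlapped between the groups, at 6.49 to 6.65 against 6.45 to 6.59, 6.04 to 6.22 against 6.13 to 6.15, and 5.22 to 5.42 against 5.26 to 5.33. The largest differences in them were MITF (-0.14), KRT10 (0.07) and CD14 (0.08), and with 1 array left out KRT10 ran from 0.02 to 0.10 and CD14 from 0.03 to 0.17. The part of any cell state in the S100 and annexin rises was not tested.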

How the data were processed

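RNA of 6 BE(2)-C samples, 3 given DMSO and 3 BIX01294, was measured on Affymetrix arrays. The authors deposited 1 log2 expression value per row and array. The log2 scale was read from the values, and Partek is the only tool named, per the submitters' processing notes. Background correction, scaling between arrays and genome build: not given in the sources used here. Array medians were 6.94 to 7.01.

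The platform annotation gave a single symbol to 19158 of 32321 rows. The row with the highest mean was kept for each of 18404 genes, without a filter on dim genes. Treatment was tested with limma 3.58.1 in R 4.3.3 (two-sided, Benjamini-Hochberg over the 18404 genes, threshold 0.05). On 20 simulated data sets with 200 changed genes each, the fit recovered 70.4% of changes of 0.5 and 96.3% of changes of 1. Of its calls there 4.34% were false. The real data had 4349 called genes, so recovery there can differ from the simulated one. Members and lists were chosen with earlier results of these data known. Named are all members, up to 4 called genes per list (otherwise the largest difference) and the neighbours of called members; ANXA2 pseudogenes were added after their values were seen. RefSeq (GRCh38.p14) served for names, gene order and promoter sequences. The alternatives were quantile normalization, centring, 2 filters on dim genes, other choices of row, an intensity trend with robust estimation, a replicate block, all rows (added after seeing the data) and leaving out each array.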

Additional observations from a re-analysis of the deposited data

How the results depend on the processing

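Of the 9 members that passed, 6 kept direction and call in every alternative that tested them; ANXA5, ANXA6 and S100B lost theirs in some, and none of the 9 reversed. Each member had 1 row, so other choices of row left its change as it was. The filters, the trend and the block did so too, and these alternatives could alter only the adjusted p. The number of S100 symbols called was 5, with 4 to 7 over the alternatives, and that of annexins 4, with 2 to 5 over the alternatives and 2 to 3 when 1 array was left out. The 2 filters on dim genes tested fewer members, 12 and 6 of the 22 S100 symbols and 7 and 5 of the 11 annexins. With the median filter the 5 S100 calls were 4 higher and 1 lower, and S100A3 and S100B were not tested. The 2 annexins left without BIX01294 replicate 1 or without BIX01294 replicate 3 were ANXA2 and ANXA7. Calls in the related lists numbered 31, with 24 to 34. The labels do not say whether a number shared by a DMSO and a BIX01294 array pairs them. Same-numbered arrays' deviations from their group means correlated at 0.19, -0.18 and 0.05, and differently numbered ones at -0.32 to 0.29. With 3 arrays per group these correlations cannot decide whether the arrays were paired. With the replicate number as a block, 7 S100 symbols (6 higher, 1 lower) and 3 annexins passed, and 27 list genes. Members that did not pass and lay near 0 changed sign: S100A9 was 0.0099 after quantile normalization and 0.026 after centring, S100P 0.000855 and 0.017, and S100Z 0.0084 after centring. With 1 array left out, changes ran from -0.057 to 0.11 for ANXA3, -0.10 to 0.041 for ANXA9, -0.12 to 0.026 for ANXA1, -0.016 to 0.22 for S100A7A, -0.061 to 0.13 for S100A7, -0.019 to 0.14 for S100A7L2, -0.048 to 0.044 for S100A9, -0.12 to 0.043 for S100P, -0.091 to 0.0085 for S100Z, -0.18 to 0.11 for S100A1 and -0.20 to 0.013 for S100A14. The cause was not tested. The median change over all genes was -0.01 as deposited, -0.01 after quantile normalization and 0.03 after centring. With 3 arrays per group and no detection calls, small changes in dim members could be missed.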

Other observations

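The array also held 3 rows that carry the symbols ANXA8 and ANXA8L1 together, which the choice of single-symbol rows left out. In the limma fit over all rows their changes ran from -0.30 to -0.07, 0 passed (lowest adjusted p 0.111) and 1 had an unadjusted p under 0.05. The 2 genes cannot be told apart on these rows.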
